A study of Neurospora crassa with 18 samples.

Results

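The genes described here were those whose mRNA was higher in a *Neurospora crassa* strain that lacks *cpc-1* (*cpc-1Δ*) than in the wild-type (WT) strain in each of 3 cultures. They were chosen by measured values of these same libraries. A gene had to be above 0 RPKM (a read count scaled to the length of the transcript and to the reads of the library) in all 15 WT and *cpc-1Δ* libraries, with a mean of at least 10 scaled RPKM, and the ratio of the *cpc-1Δ* mean to the WT mean had to be at least 1.6 in 2% glucose, in 2% glucose with 3-AT and in 0.1% glucose. Of 9730 genes in the files, 4074 passed the filter on level and 140 passed all 3 ratios, so the limit of 200 genes was not reached. The *cpc-1Δ* to WT values of these 140 genes are therefore given as a description, without a test.

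CPC-1 is a bZIP transcription factor and the ortholog of yeast GCN4. When amino acids run short it activates genes of amino acid biosynthesis across many pathways, a response called cross-pathway or general amino acid control. 3-AT (3-aminotriazole) inhibits a step of histidine biosynthesis and is commonly used to call up this response. A gene that is higher without CPC-1 may lie far downstream of it, and mRNA levels do not separate direct from indirect control.

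The mycelial mRNA-seq libraries formed 7 groups, all from cultures grown in Vogel's medium at room temperature under constant light. The *cpc-1Δ* strain, taken from the *Neurospora* knockout collection, had 2 libraries in 2% glucose, 3 in 2% glucose after 8 h with 5 mM 3-AT, and 2 in 0.1% glucose. A strain labelled cpc-1KO + cpc-1WT had 3 libraries, all in 2% glucose with 3-AT. It is the *cpc-1Δ* strain with a tagged *cpc-1* open reading frame of native codons placed at the *csr-1* locus, driven by the promoter and 5′ UTR of *ccg-1*, together with a hygromycin resistance gene. The WT strain, FGSC4200, had 3 libraries in 2% glucose, 3 in 2% glucose with 3-AT and 2 in 0.1% glucose. The 0.1% glucose medium also contained 0.17% arginine, so glucose and arginine differ together between those cultures. The deletion and the rest of the strain background cannot be told apart in *cpc-1Δ* against WT, and nothing states that the numbered libraries came from separate cultures, so each *P* value measures only the spread between these libraries.

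*cpc-1* itself (NCU04050, chromosome VI) averaged 3.09, 2.31 and 1.83 scaled RPKM in *cpc-1Δ* in 2% glucose, with 3-AT and in 0.1% glucose. It averaged 64.1 ± 5.48 in the transgene strain with 3-AT (SD, n = 3), and 1279, 1666 and 321 in WT in the same 3 cultures. The transgene has the 5′ UTR of *ccg-1* in place of its own, so its value and those of WT may not cover the same stretch of mRNA. Each library was divided by a scaling factor (0.663 to 1.34) because the sum of RPKM over all genes differed. Groups with 2 libraries summed to between 515150 and 546387 RPKM per library, and those with 3 to between 258726 and 423848. The *cpc-1Δ* and WT libraries in 0.1% glucose belong to the first range and all libraries with 3-AT to the second, whereas in 2% glucose the *cpc-1Δ* libraries belong to the first and the WT libraries to the second; the part of this in the results was not tested. Of 10 markers of conidia and conidiophores 9 were matched. Their summed level was 123 to 194 scaled RPKM in *cpc-1Δ*, 752 to 780 in the transgene strain and 3403 to 3556 in WT with 3-AT, nearly all of the difference being *eas*, the hydrophobin gene, which was listed at 0 in 2 of the 18 libraries. With 3-AT and without *eas* the sums were 123 to 130, 129 to 140 and 129 to 133. In 2% glucose all 9 markers summed to 225 to 230 in *cpc-1Δ* and 120 to 719 in WT. Without *eas* they summed to 211 to 216 in *cpc-1Δ* and 117 to 120 in WT. There the means of *con-8*, *csp-1* and *con-10* were higher in *cpc-1Δ* (80.3, 84.8 and 18.3, against 28.1, 35.7 and 2.05 in WT). Those of *fl* and *csp-2* were lower in *cpc-1Δ* (13.7 and 14.7, against 21.4 and 31.0 in WT). In 0.1% glucose the sum was 132 to 139 in *cpc-1Δ* and 401 to 412 in WT. Without *eas* it was 118 to 125 in *cpc-1Δ* and 357 to 372 in WT, the other direction from the sum in 2% glucose. *con-6*, listed at 0 in every library in 2% glucose, was detected in 0.1% glucose. None of the matched markers was among the 140 genes. However, *eas*, *con-6* and *acon-3*, listed at 0 in some libraries, could not pass the filter on level. Nor could *con-13*, whose group means were at most 1.92 scaled RPKM. The part of conidial RNA in the levels of the 140 genes was not tested. In such bulk samples fewer cells of a type and less RNA per cell cannot be told apart.

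The 140 genes were mostly of low to moderate level. Their median was 32.8 scaled RPKM in *cpc-1Δ* and 11.99 in WT in 2% glucose, 35.2 in *cpc-1Δ* and 12.9 in WT with 3-AT, and 21.2 in *cpc-1Δ* and 3.42 in WT in 0.1% glucose. The median ratio of *cpc-1Δ* to WT was thus alike in 2% glucose (2.54, range 1.61 to 19.9) and with 3-AT (2.51, range 1.61 to 36.7) and was 5.59 in 0.1% glucose (range 1.62 to 56.6). Over the 4074 genes past the filter the median ratios were 0.970, 1.01 and 0.976 in the same order of cultures. The largest of a gene's 3 ratios was that in 0.1% glucose for 97 genes, that with 3-AT for 31 and that in 2% glucose for 12. A ratio of at least 10 was seen for 46 genes in 0.1% glucose, for 7 with 3-AT and for 3 in 2% glucose. In all 140 genes every *cpc-1Δ* library lay above every WT library of the same culture, in each of the 3 cultures. The libraries of a group were close, with a median coefficient of variation over the genes of 2.71% to 7.36% in all groups but WT in 0.1% glucose, where it was 15.01% and where 17 genes averaged under 1 scaled RPKM. The files give no read totals, so the counting error of such low values could not be computed.

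**Figure D1:**
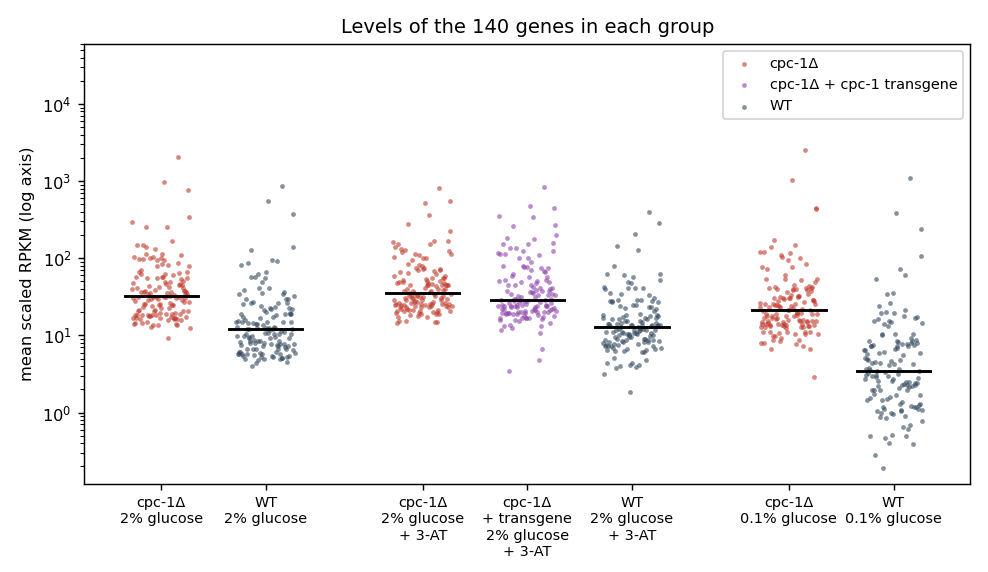
Mean scaled RPKM (log axis) of each of the 140 genes in the 7 groups, with *cpc-1Δ* left of the transgene strain and WT within a culture; each point is 1 gene and each black line the median. The medians are 32.8 against 11.99 in 2% glucose, 35.2 against 12.9 with 3-AT (28.9 in the transgene strain) and 21.2 against 3.42 in 0.1% glucose; these values chose the genes, except those of the transgene strain.

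NCU00399 (chromosome III, no gene name in RefSeq) had the largest product of the 3 ratios. It had 296 and 300 scaled RPKM in *cpc-1Δ* in 2% glucose, against 11.9, 16.3 and 16.7 in WT. With 3-AT it had 166, 166 and 149 in *cpc-1Δ*, against 5.31, 7.67 and 10.96 in WT, and in 0.1% glucose 128 and 112 in *cpc-1Δ*, against 8.04 and 4.93 in WT. Its ratios were 19.9, 20.1 and 18.5 in 2% glucose, with 3-AT and in 0.1% glucose. With RPKM as deposited they were 29.9, 27.8 and 18.6, so that how even they are over the cultures depends on the scaling.

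The second was *gh28-1* (NCU02369, chromosome VII), which encodes a glycoside hydrolase of family 28, a family of pectin-degrading enzymes. It had 166, 165 and 127 scaled RPKM in *cpc-1Δ* with 3-AT, against 4.30, 4.80 and 3.36 in WT, a ratio of 36.7 and the largest with 3-AT. In 2% glucose it had 84.3 and 77.0 in *cpc-1Δ*, against 16.5, 19.1 and 15.8 in WT, a ratio of 4.71. The *cpc-1Δ* libraries were higher with 3-AT than without it and the WT libraries were lower with 3-AT, so that the wide gap with 3-AT came from both sides.

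*hak-1* (NCU00790, chromosome I), encoding a potassium transporter, also had its widest gap with 3-AT. It had 53.9, 53.5 and 52.4 scaled RPKM in *cpc-1Δ*, against 3.54, 3.76 and 4.41 in WT, a ratio of 13.7. In 2% glucose it had 62.4 and 62.9 in *cpc-1Δ*, against 12.4, 12.9 and 12.2 in WT, and in 0.1% glucose 38.0 and 40.2 in *cpc-1Δ*, against 8.65 and 8.51 in WT, ratios of 5.01 and 4.56. The *cpc-1Δ* level was lowest in 0.1% glucose and the WT level was lowest with 3-AT.

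Another shape was common among the 10 genes with the largest products, in which the WT level in 0.1% glucose was far below that of the other cultures. NCU09499 (chromosome III) had 10.95 and 10.85 scaled RPKM in *cpc-1Δ* in 0.1% glucose, against 0.109 and 0.276 in WT, giving the largest ratio of any culture, 56.6. NCU07547 (chromosome III) had 27.4 and 24.3 in *cpc-1Δ*, against 0.282 and 0.722 in WT, a ratio of 51.5. NCU09380 (chromosome I) had 20.6 and 18.6 in *cpc-1Δ*, against 0.466 and 0.525 in WT, a ratio of 39.5. In these 3 genes the ratio was 2.54 to 3.56 in the other cultures, and the 2 WT libraries of NCU09499 and NCU07547 differed by more than their own smaller value. The shape was also seen at higher levels: NCU03092 (chromosome I) had 46.3 and 52.3 in *cpc-1Δ*, against 1.52 and 1.84 in WT, in 0.1% glucose (ratio 29.3). NCU03952 (chromosome VI) and NCU02546 (chromosome I) had ratios of 21.8 and 17.8 in 0.1% glucose, beside 3.99 and 5.45 in 2% glucose.

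NCU04942 (chromosome IV) had 118 and 109 scaled RPKM in *cpc-1Δ* in 2% glucose, against 8.27, 8.21 and 8.65 in WT, a ratio of 13.6. With 3-AT it had 37.7, 42.2 and 38.8 in *cpc-1Δ*, against 7.23, 10.1 and 9.30 in WT, a ratio of 4.45. The WT level was nearly the same in both cultures, and the smaller ratio went with a lower level in *cpc-1Δ*.

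**Figure D2:**
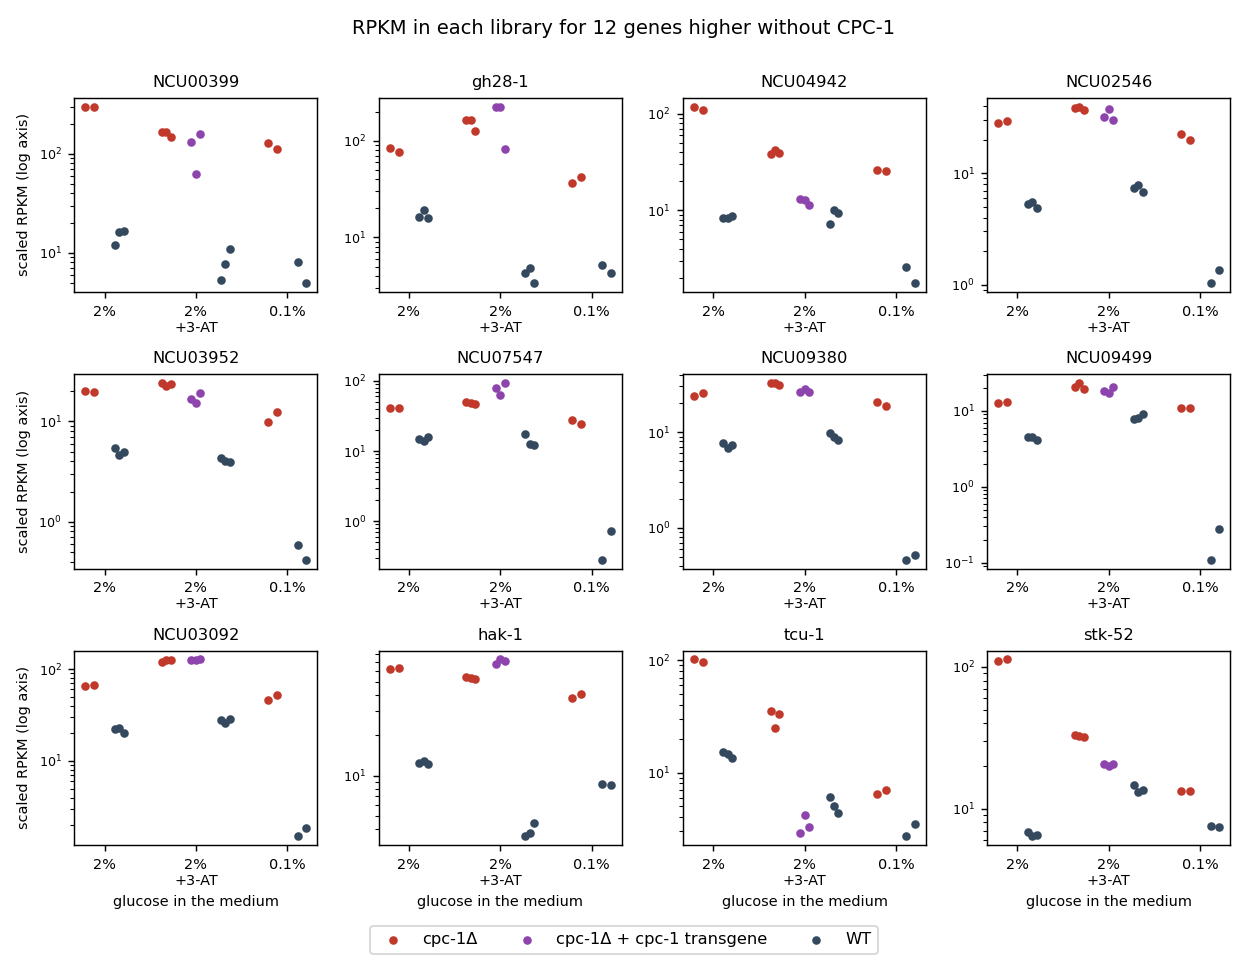
Scaled RPKM (log axes that differ between panels) in every library of the 10 genes with the largest product of ratios and of *tcu-1* and *stk-52*, by culture; each point is 1 library, *cpc-1Δ* is left of the transgene strain (with 3-AT alone) and WT. NCU00399 has ratios of 18.5 to 20.1 on this scale, NCU09499 and NCU07547 lie under 1 in WT in 0.1% glucose, and *tcu-1* in the transgene strain lies at 2.93 to 4.19, with WT at 4.41 to 6.01.

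All 140 genes were matched to RefSeq by locus tag, and 16 had a gene name. The other 124 had only the locus tag, so what they encode was not used here. The named genes fell into several roles, and none was on a list of the amino acid biosynthesis targets of CPC-1, of conidiation and clock-controlled genes, of light-response genes, of oxidative stress enzymes or of heat shock proteins. Of the 14 target names, 10 were matched and 8 passed the filter on level. The other lists held 12, 8, 2 and 7 genes past the filter, in the order named. A list of mating-type and pheromone genes held 1, also not among the 140. The 140 were 3.44% of all genes past the filter, so lists this short could hold few or none of them. Their absence is therefore not a result about the 140 genes. 

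Besides *gh28-1*, 3 named genes act on the cell wall or on polysaccharides. *gel-3* (NCU08909) and *gel-4* (NCU07253) encode β-1,3-glucanosyltransferases, which lengthen wall glucan. *gel-3* was the most abundant named gene, with 778 and 778 scaled RPKM in *cpc-1Δ* in 2% glucose, against 369, 369 and 372 in WT. Its ratios were 2.10, 1.92 and 1.88 in 2% glucose, with 3-AT and in 0.1% glucose, and those of *gel-4* were 3.16, 3.34 and 2.98. *asd-1* (NCU05598), needed for ascus development and similar to rhamnogalacturonases, had 86.7, 84.1 and 82.7 in *cpc-1Δ* with 3-AT, against 14.5, 13.4 and 14.9 in WT, a ratio of 5.93 beside 2.46 and 1.89 in the other cultures.

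*tcu-1* (NCU00830), the second transporter gene, encodes a copper transporter. It had 101.5 and 97.0 scaled RPKM in *cpc-1Δ* in 2% glucose, against 15.3, 14.7 and 13.5 in WT, a ratio of 6.84. In 0.1% glucose it had 6.50 and 6.996 in *cpc-1Δ*, against 2.72 and 3.48 in WT, a ratio of 2.18. Both strains were lowest there.

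Another 5 named genes act in RNA synthesis, on RNA or on protein arginines. *un-18* (NCU08616) encodes a subunit of RNA polymerase I, and had ratios of 2.42, 2.10 and 7.70. *cyt-5* (NCU06308) encodes the mitochondrial RNA polymerase, and had ratios of 2.47, 1.83 and 5.14. *frh* (NCU03363), encoding the RNA helicase that binds the clock protein FRQ, had 21.9 and 21.4 scaled RPKM in *cpc-1Δ* in 2% glucose, against 10.3, 10.3 and 8.80 in WT. Its ratios were 2.21, 1.89 and 4.07. *prm-1* (NCU07459) and *prm-3* (NCU01669) encode protein arginine methyltransferases and had ratios of 10.3 and 3.94 in 0.1% glucose. The 2 WT libraries of *prm-1* in 0.1% glucose, at 4.01 and 12.2, differed by more than the lower of them, against 79.5 and 86.7 in *cpc-1Δ*. All 5 had their largest ratio in 0.1% glucose.

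*ad-7* (NCU04216) encodes the first enzyme of purine synthesis. It had 29.8 and 30.7 scaled RPKM in *cpc-1Δ* in 0.1% glucose, against 2.97 and 2.47 in WT, a ratio of 11.1 beside 1.81 and 2.29 in the other cultures. *erg-3* (NCU08762), encoding sterol C-14 reductase of ergosterol synthesis, had its largest ratio with 3-AT instead. It had 166, 169 and 168 in *cpc-1Δ*, against 40.2, 42.4 and 41.2 in WT, a ratio of 4.06 beside 1.83 and 1.70. *fkr-4* (NCU03241), an FKBP-type immunophilin gene, had ratios of 2.22, 2.63 and 14.5, and *gch-1* (NCU07774) had ratios of 1.67, 2.00 and 5.37. *stk-52* (NCU08767), encoding a serine/threonine protein kinase, had 111 and 113 in *cpc-1Δ* in 2% glucose, against 6.87, 6.40 and 6.48 in WT. Its ratio was 17.0 there, 2.36 with 3-AT and 1.78 in 0.1% glucose, the reverse of the order seen in *ad-7*.

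The threshold cut through a continuous range. The 2 genes just inside it were NCU07380, with a smallest ratio of 1.612 (with 3-AT), and NCU08030, also 1.612 (in 2% glucose). The 2 genes just outside were NCU04166, with 1.589 in 0.1% glucose, and NCU03950, with 1.587 in 2% glucose and 5.82 in 0.1% glucose. With RPKM as deposited, without the scaling, 395 genes passed in place of 140, and with a ratio of at least 2 in every culture 81 passed.

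To ask whether the strain difference held in libraries that had not chosen the genes, genes were chosen from 2 cultures and tested in the third (limma on log2 of scaled RPKM + 1, Benjamini-Hochberg adjusted *P* under 0.05 over all genes tested). The scaling and the filter on level still used all 15 libraries. Of 189 genes chosen without the libraries with 3-AT, 172 (91%) exceeded WT in *cpc-1Δ* in the libraries with 3-AT and 3 were lower, where 26.5% of 8721 genes tested and 35.6% of the 4074 past the filter were higher. Their median log2 fold change was 1.09, with -0.01 over all genes tested. Of 312 genes chosen without the 2% glucose libraries, 219 (70.2%) were higher in *cpc-1Δ* in 2% glucose and 20 were lower. There 22.5% of 8732 genes tested and 26.9% of those past the filter were higher (median log2 fold change 0.54, and 0.01 over all genes). Of 256 genes chosen without the 0.1% glucose libraries, 147 (57.4%) were higher in *cpc-1Δ* in 0.1% glucose and 33 were lower. In that culture 17.4% of 8457 genes tested and 24.3% of those past the filter were higher (median log2 fold change 0.89, and -0.09 over all genes). The count of 147 rested on 2 libraries a strain and fell to 42 without either *cpc-1Δ* library of 0.1% glucose, replicate 1 or replicate 2. All 3 lists hold the 140 genes and others that failed the ratio in the culture tested, so the counts are over the lists and not over the 140.

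**Figure D3:**
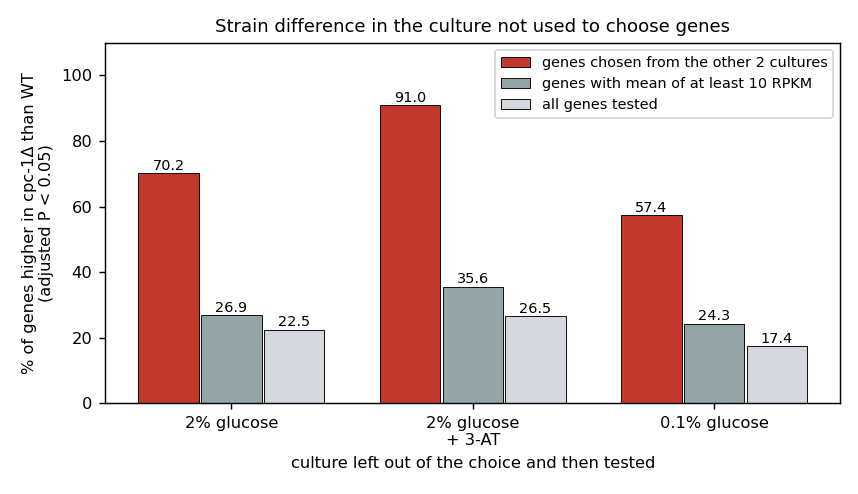
Percentage of genes higher in *cpc-1Δ* than in WT (adjusted *P* under 0.05) in the culture that took no part in the ratios that chose them, beside the same percentage over genes with a mean of at least 10 scaled RPKM and over all genes tested. The chosen genes reach 70.2%, 91% and 57.4%, and all genes tested 22.5%, 26.5% and 17.4%.

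The transgene strain was compared with both other strains. Against *cpc-1Δ* it has a *cpc-1* copy, but it also lacks *csr-1* and carries the hygromycin resistance gene. It was also selected and purified as a transformant, and these differences cannot be told apart from the copy. With 3-AT, *cpc-1* averaged 64.1 scaled RPKM in the transgene strain, against 1666 in WT. The libraries of the transgene strain had no part in the choice, whereas the *cpc-1Δ* and WT libraries with 3-AT did. With 3-AT the 140 genes lay at a median of 28.9 scaled RPKM in the transgene strain, 35.2 in *cpc-1Δ* and 12.9 in WT. Against WT, 133 of the 140 were higher in the transgene strain and 0 were lower by limma. Of 8688 genes tested 24.4% were higher, and of the 4065 among them past the filter 33.7%. At an unadjusted limma *P* under 0.05, 2 of the 140 were lower. The 2 were *tcu-1*, with a log2 fold change of -0.46 ± 0.17 (SE), which passed the threshold under 6 of the alternatives, and NCU07232, with -0.30 ± 0.12 (SE). Of the 189 genes whose ratios used no library with 3-AT, 158 (83.6%) were higher in the transgene strain than in WT. The filter on level still used the *cpc-1Δ* and WT libraries with 3-AT.

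Against *cpc-1Δ*, 45 of the 140 genes (32.1%) were lower in the transgene strain and 14 (10%) were higher, where 13% of 8688 genes were lower and 16.1% were higher. Among the 4065 of these past the filter on level, 15.8% were lower and 25% were higher. The median log2 fold change of the 140 genes was -0.17. Over the 189 genes whose ratios used no library of this test, 61 (32.3%) were lower and 19 (10.1%) were higher. The scaling and the filter on level still used the *cpc-1Δ* and WT libraries of the test. The split depended on the scaling. With RPKM as deposited, which shifts the median of the genes past the filter by 0.22 on the log2 scale, 18 of the 140 were lower and 24 were higher, and 24 of the 189 were lower and 36 were higher. The scaled mean of the transgene strain lay between those of *cpc-1Δ* and WT for 108 of the 140 genes, at or above *cpc-1Δ* for 30 and at or below WT for 2, a description that shares the *cpc-1Δ* and WT libraries with the choice. For the 189 genes whose ratios did not use them, the median log2 fold change against WT was 0.89 in the transgene strain and 1.09 in *cpc-1Δ*.

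The genes with the lowest values in the transgene strain relative to *cpc-1Δ* stood well apart. NCU07232 (chromosome V) had 5.68, 3.74 and 5.01 scaled RPKM in the transgene strain, against 69.7, 69.4 and 68.5 in *cpc-1Δ*, and 6.06, 5.86 and 6.39 in WT. The log2 fold change of the transgene strain against *cpc-1Δ* was -3.61 ± 0.12 (SE, limma adjusted *P* = 5.2e-07). *tcu-1* had 2.93, 4.19 and 3.27 in the transgene strain, against 35.2, 24.9 and 32.9 in *cpc-1Δ*, and 6.01, 5.01 and 4.41 in WT. Its log2 fold change was -2.84 ± 0.17 (SE, limma adjusted *P* = 1.3e-05). Both genes were at about the WT level in the transgene strain, and these were the 2 genes whose mean lay below that of WT. NCU04942 had 13.005, 12.7 and 11.2 in the transgene strain, against 37.7, 42.2 and 38.8 in *cpc-1Δ*, with a log2 fold change of -1.61 ± 0.12 (SE, limma adjusted *P* = 4.5e-05).

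At the other end, NCU02138 (chromosome I) had 348, 375 and 346 scaled RPKM in the transgene strain, against 100.5, 102 and 107 in *cpc-1Δ*, and 40.5, 42.1 and 42.8 in WT. Its log2 fold change against *cpc-1Δ* was 1.78 ± 0.05 (SE, limma adjusted *P* = 3.1e-07), so that the transgene strain lay farther from WT than *cpc-1Δ* did. NCU00261 (chromosome III) had 197, 218 and 190 in the transgene strain, against 110, 111 and 115 in *cpc-1Δ*, and 60.5, 63.8 and 64.1 in WT. NCU09906 (chromosome I) had 149, 160 and 152 in the transgene strain, against 74.1, 73.2 and 72.1 in *cpc-1Δ*, and 4.64, 2.03 and 6.39 in WT. The call for NCU09906 (limma adjusted *P* = 0.028) was lost with a pseudocount of 0.1 and without any 1 library of either strain. Its WT libraries, which share the estimate of spread, were far apart.

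Among the named genes, *gel-4*, *gel-3*, *asd-1*, *erg-3*, *cyt-5*, *frh*, *prm-3*, *stk-52* and *gch-1* were lower in the transgene strain than in *cpc-1Δ*, besides *tcu-1*. The calls for *gel-3*, *frh* and *prm-3* were lost with RPKM as deposited. *erg-3* had 109, 117 and 107 scaled RPKM in the transgene strain, against 166, 169 and 168 in *cpc-1Δ*, with a log2 fold change of -0.59 ± 0.05 (SE, limma adjusted *P* = 9.1e-05). *hak-1* was the 1 named gene that was higher, with 67.4, 73.1 and 71.2 in the transgene strain, against 53.9, 53.5 and 52.4 in *cpc-1Δ* (log2 fold change 0.40 ± 0.07, SE, limma adjusted *P* = 0.0048). *gh28-1* was not called, with 225, 227 and 81.9 in the transgene strain, against 166, 165 and 127 in *cpc-1Δ*, and the third transgene library stood apart. Without that library its log2 fold change was 0.58 and the call was made.

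**Figure D4:**
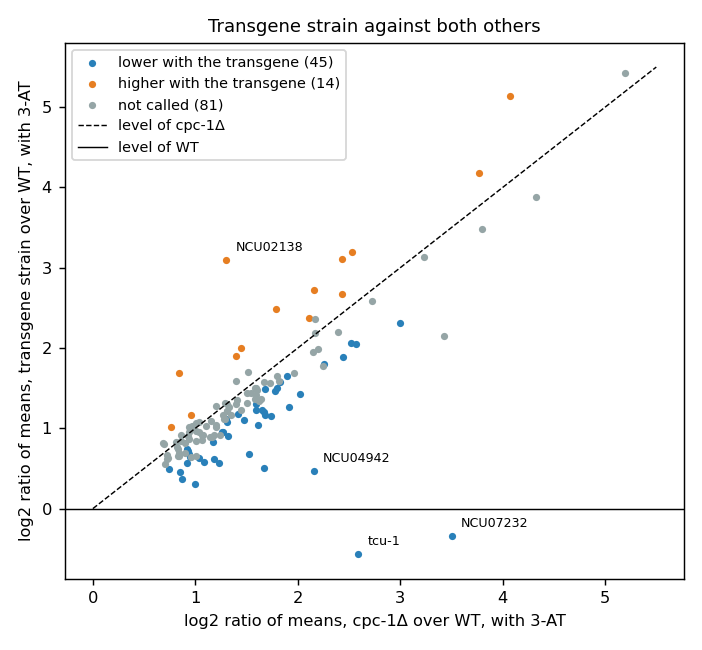
Log2 ratio of group means with 3-AT for the 140 genes: the transgene strain over WT (vertical) against *cpc-1Δ* over WT (horizontal), each point 1 gene, coloured by the test of the transgene strain against *cpc-1Δ*. Most points lie near the dashed line of the *cpc-1Δ* level; 45 were lower with the transgene and 14 higher, and *tcu-1* and NCU07232 lie under the line of the WT level. Both axes share the WT libraries.

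The effect of the cultures was tested within each strain, a contrast that the ratios did not use on libraries that they did use. In 0.1% glucose with arginine against 2% glucose, 82 of the 140 genes (58.6%) fell in *cpc-1Δ* and 3 (2.14%) rose, where 14.2% of 9013 genes fell and 13.5% rose (19.9% and 23% of the 4074 past the filter on level). In WT 125 (89.3%) fell and 3 rose, where 26.5% fell and 26.6% rose (39.4% and 34.2% past the filter). The median log2 fold change of the 140 genes was -0.42 in *cpc-1Δ* and -1.52 in WT, with 0.00 over all genes in both. In both strains 78 genes fell, and 45 fell in WT and were not called in *cpc-1Δ*. No such overlap was counted over all genes, so these counts only describe the 140. Because the choice asked for a low WT level relative to *cpc-1Δ* in 0.1% glucose, the larger fall in WT is tied to the choice and the difference between the strains was not tested. For the 256 genes whose ratios used no 0.1% glucose library, 152 (59.4%) fell in *cpc-1Δ* and 144 (56.2%) in WT, with medians of -0.47 and -0.54. In the WT contrast the 2 groups also lay in different ranges of RPKM sums, as given above, and in the *cpc-1Δ* contrast they did not.

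NCU03117 (chromosome I) had the deepest fall in WT on the scale of log2(RPKM + 1), which shrinks the change of low genes. It had 4.70 and 7.03 scaled RPKM in WT in 0.1% glucose, against 128, 128 and 128 in WT in 2% glucose, a log2 fold change of -4.25 ± 0.11 (SE, limma adjusted *P* = 1.3e-10). In *cpc-1Δ* it had 175 and 174 in 0.1% glucose, against 252 and 261 in 2% glucose, a log2 fold change of -0.55 ± 0.12 (SE). NCU07547, described above, followed with -3.42 ± 0.16 in WT (SE). By group means the WT level was 29.8-fold lower in 0.1% than in 2% glucose for NCU07547 and 21.8-fold lower for NCU03117. NCU09903 (23.10-fold) and NCU09499 (23.07-fold) lay between them, so that NCU03117 was not the deepest by group means. NCU05230 (chromosome IV) and *tcu-1* had the deepest falls in *cpc-1Δ*. NCU05230 had 2.79 and 2.97 in *cpc-1Δ* in 0.1% glucose, against 55.7 and 54.9 in 2% glucose, a log2 fold change of -3.86 ± 0.12 (SE), and that of *tcu-1* was -3.69 ± 0.16 (SE). Both also fell in WT, by 3.14 and 1.93 on the log2 scale.

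The few genes that rose in 0.1% glucose did so by little. NCU00835 (chromosome I) had 9.17 and 11.1 scaled RPKM in WT in 0.1% glucose, against 5.32, 5.95 and 5.39 in 2% glucose, a log2 fold change of 0.76 ± 0.10 (SE). NCU08389, the most abundant of the 140 genes, rose by 0.28 ± 0.05 in *cpc-1Δ* and 0.32 ± 0.05 in WT on the log2 scale (SE). In *cpc-1Δ* the largest rises were those of *ad-7* (0.39 ± 0.08, SE) and NCU04603 (0.34 ± 0.08, SE). Both fell in WT, *ad-7* by 1.87 and NCU04603 by 0.41.

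3-AT moved the genes less, and in both directions. In *cpc-1Δ* 47 genes (33.6%) rose with 3-AT and 25 (17.9%) fell, where 15% of 9013 genes rose and 15.7% fell. Among the 4074 genes past the filter on level 22.4% rose and 26.4% fell. In WT 56 (40%) rose and 30 (21.4%) fell, where 21.8% rose and 17.7% fell, and past the filter 29.4% rose and 30.3% fell. In both strains the share of the 140 that fell was below that of the genes past the filter. The medians were 0.15 in *cpc-1Δ* and 0.19 in WT, and 32 genes rose in both strains while 14 fell in both, overlaps not counted over all genes. The direction of these counts turned with the scaling: with RPKM as deposited 9 rose and 70 fell in *cpc-1Δ*, and 22 rose and 56 fell in WT, as the median of the genes past the filter shifted by -0.47 and -0.36. The 189 genes whose ratios used no library with 3-AT gave 49 up and 52 down in *cpc-1Δ*, and 80 up and 36 down in WT. For 3-AT the groups compared in *cpc-1Δ* lay in different ranges of RPKM sums, as given above, and those compared in WT did not.

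**Figure D5:**
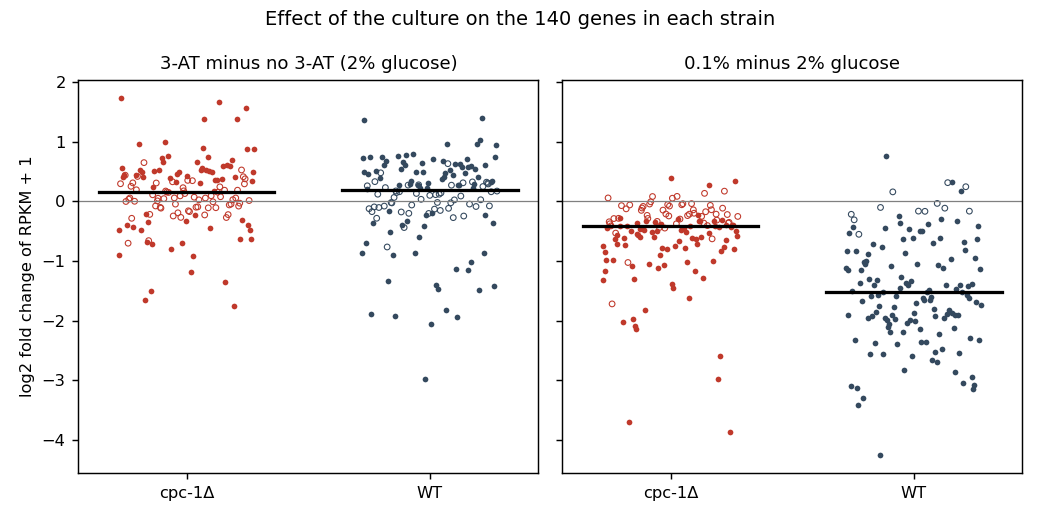
Log2 fold change of RPKM + 1 between cultures for the 140 genes in *cpc-1Δ* (left in each panel) and in WT (right): filled points passed adjusted *P* under 0.05, open points did not, and black lines are medians. With 3-AT the medians are 0.15 and 0.19; in 0.1% glucose they are -0.42 in *cpc-1Δ* and -1.52 in WT, a gap tied to how the genes were chosen.

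NCU02138 rose most with 3-AT in *cpc-1Δ*, with 100.5, 102 and 107 scaled RPKM with 3-AT, against 30.4 and 30.0 without it (log2 fold change 1.74 ± 0.08, SE, limma adjusted *P* = 8.0e-08). It also rose in WT, with 40.5, 42.1 and 42.8 with 3-AT, against 13.9, 17.3 and 15.6 without it (1.37 ± 0.07, SE). This gene was therefore higher with 3-AT, higher without CPC-1 and highest in the transgene strain. NCU07546 (chromosome III) rose by 1.66 ± 0.12 in *cpc-1Δ* and by 0.57 ± 0.11 in WT on the log2 scale (SE). NCU11012 (chromosome III) rose by 1.40 ± 0.16 in WT (SE) and had -0.08 ± 0.18 in *cpc-1Δ* (SE, not called).

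On the same log2 scale the deepest fall with 3-AT in WT was that of NCU06364 (chromosome IV). It had 1.25, 2.04 and 2.20 scaled RPKM in WT with 3-AT, against 21.1, 22.1 and 20.3 without it, a log2 fold change of -2.98 ± 0.13 (SE, limma adjusted *P* = 1.8e-08). In *cpc-1Δ* it had 24.5, 25.7 and 26.3 with 3-AT, against 43.4 and 41.0 without it (-0.71 ± 0.15, SE). NCU09906 fell by 2.06 ± 0.25 in WT (SE) and had 0.35 ± 0.28 in *cpc-1Δ* (SE, not called). In *cpc-1Δ* the deepest falls were those of *stk-52* (-1.75 ± 0.05, SE) and *tcu-1* (-1.66 ± 0.15, SE). *stk-52* rose by 0.97 ± 0.04 in WT (SE), and *tcu-1* fell there by 1.34 ± 0.13 (SE).

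The 140 genes lay on all 7 chromosomes. They made up 3.44% of the genes past the filter, from 1.98% on chromosome VI (7 of 354) to 4.45% on chromosome IV (27 of 607). No run of 3 neighbouring gene models was found, but 5 pairs were next to each other in the RefSeq order of protein-coding genes. No such count was made over all genes past the filter, so the 5 pairs only describe the 140. These pairs were NCU09904 and NCU09906, NCU07547 and NCU07546, NCU08324 and NCU08323, NCU08904 and NCU08903, and NCU04046 and NCU04047. The last pair lies 3 and 4 gene models from *cpc-1*, and NCU04058 lies 5 models away on the other side. Of the 11 genes past the filter within 10 gene models of *cpc-1* on each side, 3 were thus among the 140. NCU04046 had ratios of 2.99, 10.8 and 5.09 in 2% glucose, with 3-AT and in 0.1% glucose. Its *cpc-1Δ* libraries with 3-AT were far apart, at 8.79, 66.4 and 67.3 scaled RPKM, against 4.27, 4.22 and 4.75 in WT. Its WT libraries in 0.1% glucose had 4.90 and 1.70. In the same order of cultures NCU04047 had ratios of 2.58, 4.44 and 23.0, and NCU04058 had 2.31, 4.49 and 1.93. The direct neighbour NCU04051 had ratios of 1.19, 0.965 and 0.762, and the part of the deletion itself in its surroundings was not tested.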

How the data were processed

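mRNA-seq values of 18 libraries were used. The authors deposited RPKM per transcript; the submitters' processing notes name TopHat2 and Cufflinks, and the genome build is not given in the sources used here, so no coordinates are printed. The headers of the transgene files read GCN4WT where the titles read cpc-1WT, and the titles were followed. Of 10792 transcripts, 7 carrying a remark were left out. RPKM of a gene's transcripts were summed (9730 genes) and divided per library by the median ratio to the geometric mean over genes above 0 in all 15 WT and *cpc-1Δ* libraries. Log2(scaled RPKM + 1) was tested with limma 3.58.1 in R 4.3.3 over genes above 0 in at least 1 library of the fit, with Benjamini-Hochberg adjustment; fold changes are on that scale and understate the change of low genes. The scripts were tested on simulated data. An exact 0 can be a failed estimate; none of the 140 genes was listed at 0. Read totals are not in the files, so precision rests on 2 or 3 libraries a group.

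The 140 genes and all lists were chosen with earlier results of these data known. Named in the text are *cpc-1*, the 10 genes with the largest product of ratios, every gene with a RefSeq name (NC12 table), the 2 genes on either side of the threshold, and the called genes with the most extreme fold changes: 3 at each end for the transgene, 2 at each end for each culture. Gene pairs, the models near *cpc-1* and NCU09903 were named after their values were seen. Gene lists by product name could not be applied. Alternatives were RPKM as deposited, upper-quartile scaling, group medians, the first transcript alone, a ratio of 2, a pseudocount of 0.1, at least 1 RPKM in every library of a group, other sets of libraries in the fit, a replicate block and each library left out. Lists chosen without the libraries compared were added after seeing the data. Their scaling and their filter on level still used all 15 WT and *cpc-1Δ* libraries.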

Additional observations from a re-analysis of the deposited data

Results flagged for a closer look

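In some of the 140 genes the libraries of a culture lay beyond those of 2% glucose on opposite sides in the strains, every library counted; differences between the strains were not tested, and the ratios that chose the genes used the same libraries. Between 0.1% and 2% glucose this held for 7 genes, 5% of the 140, where it held for 974 (23.9%) of the 4074 genes past the filter on level. Of the 7, 3 passed the limma test (adjusted *P* under 0.05) in both strains: *ad-7* and NCU04603, which rose in *cpc-1Δ* and fell in WT, and *stk-52*, which fell in *cpc-1Δ* and rose in WT. The other 4 (*gch-1*, NCU00457, NCU03302 and NCU00835) did not pass in *cpc-1Δ*. Between 2% glucose with and without 3-AT it held for 20 genes, 14.3% of the 140, where it held for 1021 (25.1%) past the filter. Of the 20, 8 passed in both strains: *gh28-1*, NCU07232, NCU06130, NCU00835 and NCU04058 rose with 3-AT in *cpc-1Δ* and fell in WT, and *stk-52*, NCU02528 and NCU08663 fell in *cpc-1Δ* and rose in WT. The share of the 140 was thus below that of the genes past the filter in both contrasts, and directions with 3-AT depend on the scaling, since with RPKM as deposited 9 of the 140 rose and 70 fell in *cpc-1Δ*. The genes not in the named set were listed after their values were seen.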

How the results depend on the processing

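With RPKM as deposited 395 genes met the choice, which held all 140, and with a ratio of at least 2 it was 81. Leaving out 1 library gave 122 to 156 genes, of which at least 121 were among the 140, and 104 genes were kept whichever library was left out. With RPKM as deposited the transgene strain had 24 genes higher and 18 lower than *cpc-1Δ* (median log2 fold change 0.052), the 189 genes chosen without these libraries 36 higher and 24 lower (median 0.061), 3-AT raised 22 and lowered 56 in WT (median -0.15) and raised 9 and lowered 70 in *cpc-1Δ* (median -0.33), and 0.1% glucose raised 14 in WT. Leaving out 1 library gave 42 to 120 genes higher in *cpc-1Δ* in 0.1% glucose, 8 to 10 higher in the transgene strain than in *cpc-1Δ*, and 16 to 24 lower with 3-AT in *cpc-1Δ*; fewer libraries leave fewer degrees of freedom, and the cause of the other changes was not tested. Lists chosen without the libraries compared are longer than 140, and gave 152 genes lower in 0.1% glucose and 52 lower with 3-AT in *cpc-1Δ*. With the first transcript alone no ratio could be computed for NCU08389. The lack of read totals limits what can be said of WT levels under 1 RPKM.

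With a replicate block the count of genes higher in *cpc-1Δ* in 2% glucose was 117 in place of 219, and the block changed no other count by over 1.5 times. No pairing by number was seen in the values. Same-numbered libraries deviated from their group means with correlations of -0.09 to 0.09, none of 22 pairs being over 0.1. Libraries with other numbers reached 0.134. With 2 or 3 libraries a group this measure cannot settle whether the numbers pair the samples.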
